A study of Mus musculus with 20 samples.

Results

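Myoc, Gfap, Vim, Id3 and Fabp7 are 5 genes of astrocytes, matched by symbol in the count tables of mouse hippocampus and frontal cortex, out of 17880 genes listed in either table. Myoc was chosen because it was lower in Ncs1-/- mice than in wild-type mice in both regions, and the other 4 as genes of surface or reactive astrocytes. The set was chosen by the fold change between genotypes, so that contrast is given for these 5 genes as a description, without a test. The question is whether the lower Myoc went with other genes of superficial or reactive astrocytes, library by library and in each region. The bulk RNA-seq libraries came from 4 groups of 5: Ncs1-/- hippocampus, wild-type hippocampus, Ncs1-/- frontal cortex and wild-type frontal cortex. All mice were on the C57Bl6/J strain background. Ncs1 encodes neuronal calcium sensor 1, and the labels used here name no promoter, Cre line, age or sex. They also do not say whether each library is a different animal, and the p-values therefore reflect only library-to-library spread, part of which may be technical.

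Astrocytes at the brain surface and around vessels form the glia limitans, the outer sheet of end-feet that separates brain tissue from the meninges. These superficial cells carry more glial filament than astrocytes deeper in the tissue, and Myoc is known as one of the genes that mark them. Myoc encodes myocilin, a secreted glycoprotein with an olfactomedin domain that is best known from the drainage tissue of the eye and from inherited glaucoma. Gfap and Vim encode intermediate filament proteins of astrocytes, and both are known to increase when astrocytes react to injury. Id3 encodes an inhibitor of DNA binding that is a common target of bone morphogenetic protein signalling, and Fabp7 encodes the brain lipid-binding protein of radial glia and astrocytes.

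In the deposited tables, which use mm10, Myoc lies at chr1:162639150-162649695 on the plus strand, Gfap at chr11:102887336-102897201 on the minus strand, Vim at chr2:13574311-13582827, Id3 at chr4:136143822-136145393 and Fabp7 at chr10:57784923-57788451, the last 3 on the plus strand. Vim shares chromosome 2 with Ncs1, at a distance of 17.7 Mb. In the GENCODE annotation the exons of Myoc overlap exons of Myocos, a gene on the opposite strand that neither table lists. No source used here gives the strand setting of the counts, so Myocos and Myoc reads cannot be told apart. Promoters of all 5 genes were found in RefSeq, on GRCm38.p6, as 250 bases before and 50 bases after the start. They were searched for the palindromic motifs TTCNNNGAA (STAT), TGANTCA (AP-1), GGCGCC (BMP-SMAD) and the full NFI palindrome, each the same on both strands and none overlapping another in these promoters. The STAT motif was found in 1 of the 5, that of Gfap, and in 8.3% of 32851 promoters of the same length. No member held the AP-1 motif (7.81% of all promoters), the BMP-SMAD motif (11.9%) or the NFI motif (0.0365%). The promoters of Myoc (chr1:162638900-162639199, plus strand) and Gfap (chr11:102897151-102897450, minus strand) are shown as those of the gene that chose the set and of the filament gene it was compared with most closely. Capitals mark the STAT motif, whose first base lies at position -2 from the start of Gfap.
Myoc promoter: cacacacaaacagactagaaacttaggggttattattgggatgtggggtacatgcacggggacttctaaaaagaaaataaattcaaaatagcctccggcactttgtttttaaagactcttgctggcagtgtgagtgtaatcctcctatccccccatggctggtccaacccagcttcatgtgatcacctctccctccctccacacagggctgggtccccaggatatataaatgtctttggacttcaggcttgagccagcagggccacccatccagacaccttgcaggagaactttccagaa
Gfap promoter: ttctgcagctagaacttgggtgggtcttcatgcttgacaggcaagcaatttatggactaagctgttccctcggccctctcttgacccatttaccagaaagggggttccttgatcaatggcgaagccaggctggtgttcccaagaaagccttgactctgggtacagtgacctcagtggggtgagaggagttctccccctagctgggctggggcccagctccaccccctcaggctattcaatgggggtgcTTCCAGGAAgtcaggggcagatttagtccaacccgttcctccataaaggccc

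Total counts ranged from 24.0 M to 34.6 M in Ncs1-/- hippocampus libraries and from 20.0 M to 26.1 M in wild-type hippocampus libraries. The ranges were 16.6 M to 19.9 M in Ncs1-/- cortex and 17.8 M to 26.7 M in wild-type cortex, so depth and genotype moved together and in opposite directions in the regions. Levels are in CPM, counts scaled to library size, after TMM scaling. The lowest count of any of the 5 genes in a library was 133, for Myoc in Ncs1-/- cortex. Ncs1 transcripts were reduced and not absent, at 300.2 ± 21.2 CPM in Ncs1-/- and 440.6 ± 17.3 CPM in wild-type hippocampus, and at 258.7 ± 3.68 CPM in Ncs1-/- and 367.5 ± 17.3 CPM in wild-type cortex (SD, n = 5 each). All 15 core astrocyte markers, among them Aldh1l1, Slc1a2 and the gap junction gene Gja1, were detected, and their summed level was 8357 to 9153 CPM in Ncs1-/- and 9070 to 9533 CPM in wild-type hippocampus, and 9286 to 9569 CPM in Ncs1-/- and 9332 to 10811 CPM in wild-type cortex. Choroid plexus genes (8 of 8 listed) summed to more than 500 CPM in 4 libraries, which were Ncs1-/- hippocampus 2 (5529 CPM) and 4 (797 CPM), wild-type hippocampus 4 (3644 CPM) and Ncs1-/- cortex 1 (611 CPM). The other 16 libraries lay between 151 and 250 CPM, and in some cortex libraries Otx2, one of these genes, was at 0. The results were also computed without the 4 libraries.

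Per kilobase of exon, Gfap was the most abundant of the 5 genes in every group and Myoc the least abundant. Gfap averaged 73.1 ± 5.02 CPM per kb in Ncs1-/- and 84.7 ± 9.31 CPM per kb in wild-type hippocampus, and 21.4 ± 1.87 CPM per kb in Ncs1-/- and 25.4 ± 9.15 CPM per kb in wild-type cortex (SD, n = 5 each). Vim, Id3 and Fabp7 averaged between 10.3 and 17.2 CPM per kb over the 4 groups. Myoc averaged 5.76 ± 1.29 CPM per kb in Ncs1-/- and 9.66 ± 1.16 CPM per kb in wild-type hippocampus, and 4.13 ± 1.14 CPM per kb in Ncs1-/- and 8.88 ± 2.13 CPM per kb in wild-type cortex (SD, n = 5 each). Its mean was below those of Id3 and Fabp7 in each of the 4 groups.

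Myoc, the gene of the secreted olfactomedin protein, had lower RNA levels in Ncs1-/- tissue in both regions. In hippocampus its level was 8.92, 10.7, 13.4, 10.9 and 15.7 CPM in Ncs1-/- libraries 1 to 5, against 23.3, 20.2, 16.7, 19.3 and 20.8 CPM in wild-type libraries 1 to 5. Every Ncs1-/- library lay below every wild-type library, with the highest Ncs1-/- library just under the lowest wild-type one. Such full separation with Ncs1-/- below was seen in 0.219% of the 15042 genes tested in hippocampus. The means were 11.9 ± 2.67 CPM in Ncs1-/- and 20.0 ± 2.40 CPM in wild type (SD, n = 5 each), and the log2 fold change was -0.74 (SE 0.14), or 1.67-fold lower. In cortex the level was 7.96, 7.18, 12.6, 6.68 and 8.41 CPM in Ncs1-/- libraries 1 to 5, against 21.7, 18.9, 11.8, 16.8 and 22.9 CPM in wild-type libraries 1 to 5. Here 4 of 5 Ncs1-/- libraries lay below every wild-type library, and the groups overlapped through Ncs1-/- library 3, the highest of its group, and wild-type library 3, the lowest of its group. Full separation with Ncs1-/- below was seen in 1.21% of the 14823 genes tested in cortex. The share of all genes with only part of a group's libraries outside the other group was not computed. Such counts, for Myoc and for the genes below, are descriptions. The means were 8.58 ± 2.37 CPM in Ncs1-/- and 18.4 ± 4.43 CPM in wild type (SD, n = 5 each), and the log2 fold change was -1.09 (SE 0.19), or 2.13-fold lower. Of all genes tested, 0.126% in hippocampus and 0.00675% in cortex had a lower log2 fold change than Myoc. From low to high, the mean levels ranked Ncs1-/- cortex, Ncs1-/- hippocampus, wild-type cortex and wild-type hippocampus, and the ranges of each neighbouring pair in this order overlapped. In bulk tissue, fewer Myoc-expressing cells and less Myoc RNA per cell cannot be told apart.

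**Figure D1:**
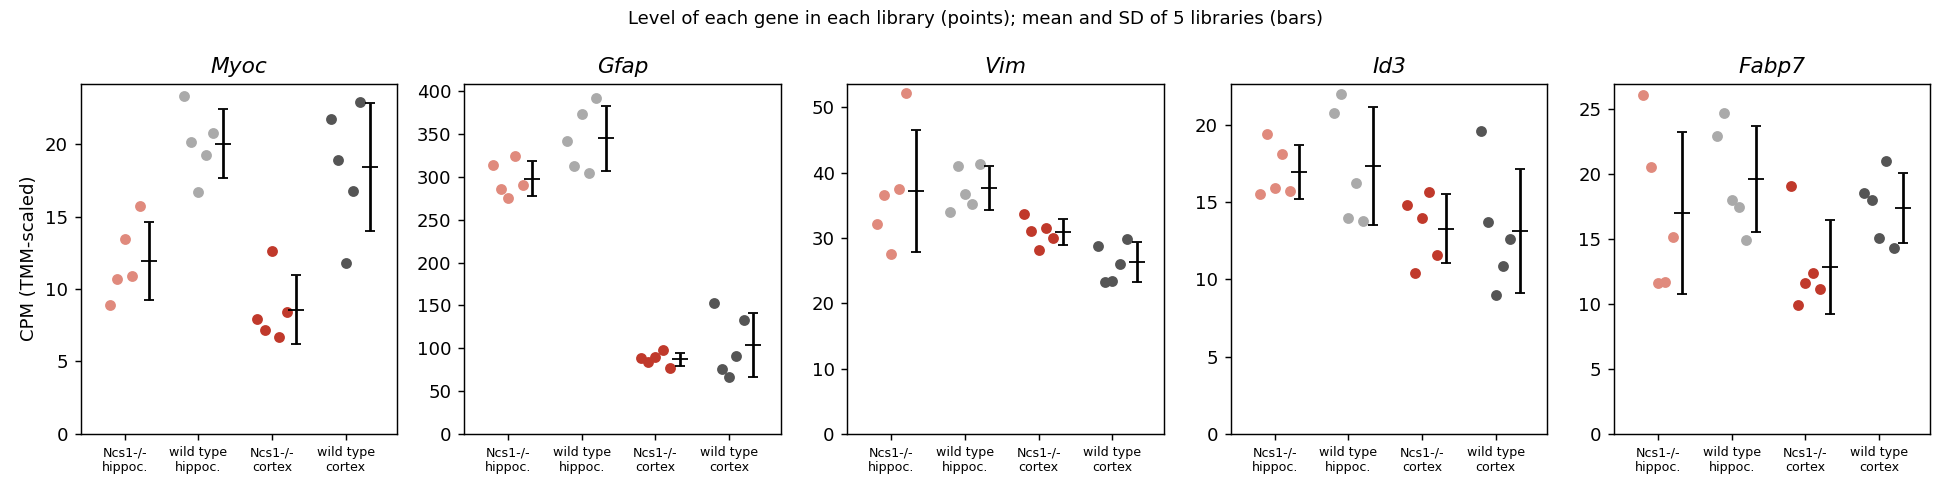
Level of each gene in CPM (TMM-scaled, axes from 0) in each of the 20 libraries, with Ncs1-/- left of wild type in hippocampus and in cortex. Points are libraries 1 to 5 from left to right, and bars give the mean and SD of 5. Myoc separates by genotype in both regions apart from 1 library on each side in cortex, whereas Gfap separates by region.

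The single libraries at the edge of the cortex groups had an effect on the size of the Myoc difference and none on its direction. Leaving out 1 library at a time, the log2 fold change in cortex ran between -1.28, without Ncs1-/- library 3, and -1.001, without wild-type library 5. In hippocampus it ran between -0.86, without Ncs1-/- library 5, and -0.66, without Ncs1-/- library 1. Without the libraries rich in choroid plexus genes it was -0.67 in hippocampus and -1.07 in cortex. The difference of the genotype effects between the regions was 0.35 (SE 0.26) on the log2 scale, hippocampus minus cortex, and is given as a description. Meningeal fibroblast markers (15 of 15 listed, none at 0 in any library) summed to 131 to 417 CPM in Ncs1-/- and 175 to 442 CPM in wild-type hippocampus, and to 164 to 233 CPM in Ncs1-/- and 119 to 210 CPM in wild-type cortex. The median sum was 164 CPM in Ncs1-/- and 238 CPM in wild-type hippocampus, and 177 CPM in Ncs1-/- and 168 CPM in wild-type cortex. Of the 15 markers, 12 had a negative log2 fold change in hippocampus (median -0.21) and 2 in cortex (median 0.16), and 0 were called in either region in edgeR, with 0 and 1 at an unadjusted p under 0.05. Among Ncs1-/- hippocampus libraries the sum was highest in library 2 (417 CPM), whose Myoc was 10.7 CPM, and in library 5 (408 CPM), whose Myoc was 15.7 CPM, and lowest in library 3 (131 CPM), whose Myoc was 13.4 CPM. The part of meningeal RNA in the Myoc difference was not tested.

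Gfap, the gene of the main filament of reactive and of superficial astrocytes, had slightly lower means in Ncs1-/- tissue, with groups that overlapped in both regions. In hippocampus it was at 313, 285, 275, 325 and 291 CPM in Ncs1-/- libraries 1 to 5, against 342, 313, 373, 304 and 393 CPM in wild-type libraries 1 to 5. The means were 298 ± 20.4 CPM in Ncs1-/- and 345 ± 37.9 CPM in wild type (SD, n = 5 each), and the log2 fold change was -0.20 (SE 0.08), and 3 of 5 Ncs1-/- libraries lay below every wild-type library. In cortex it was at 88.5, 83.3, 90.1, 97.4 and 77.1 CPM in Ncs1-/- libraries 1 to 5, against 152, 75.9, 66.1, 90.4 and 133 CPM in wild-type libraries 1 to 5. The Ncs1-/- cortex libraries lay within the wild-type range, and the wild-type libraries spread widely, with libraries 1 and 5 high and library 3 low. The means were 87.3 ± 7.60 CPM in Ncs1-/- and 103 ± 37.3 CPM in wild type (SD, n = 5 each), and the log2 fold change was -0.24 (SE 0.19), which became -0.06 without wild-type library 1 and -0.37 without wild-type library 3.

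Set against Gfap counts in the same library, Myoc was lower in Ncs1-/- tissue, a comparison that needs no scaling for depth. The ratio carries the genotype difference that chose Myoc, so it is a description and no separate support. Myoc had 2.85, 3.74, 4.88, 3.36 and 5.41 counts per 100 Gfap counts in Ncs1-/- hippocampus libraries 1 to 5, against 6.82, 6.45, 4.47, 6.33 and 5.29 in wild-type libraries 1 to 5. These groups overlapped, with means of 4.05 ± 1.07 in Ncs1-/- and 5.87 ± 0.965 in wild type (SD, n = 5 each). In cortex the ratio averaged 9.88 ± 2.73 in Ncs1-/- and 18.6 ± 3.89 in wild type (SD, n = 5 each). The cortex groups did not overlap on this ratio, although they were close, with Ncs1-/- libraries from 6.86 to 14.0 and wild-type libraries from 14.3 to 24.9. The share of all genes whose ratio to Gfap separates in this way was not computed. The wild-type cortex library with the lowest Myoc level, library 3, also had the lowest Gfap and sat at 17.8 on the ratio.

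Vim, the other astrocyte filament gene, did not share the direction of Myoc in cortex. It was at 33.6, 31.0, 28.2, 31.6 and 29.9 CPM in Ncs1-/- cortex libraries 1 to 5, against 28.8, 23.3, 23.5, 26.0 and 29.9 CPM in wild-type libraries 1 to 5. The means were 30.9 ± 2.02 CPM in Ncs1-/- and 26.3 ± 3.02 CPM in wild type (SD, n = 5 each), and the log2 fold change was 0.24 (SE 0.08), and 4 of 5 Ncs1-/- libraries lay above every wild-type library. Mural cell genes, a class that also contains Vim-expressing cells, summed to 284 to 312 CPM in Ncs1-/- and 272 to 309 CPM in wild-type cortex. In cortex 6 of 8 mural genes were positive (median log2 fold change 0.05), with 3 at an unadjusted edgeR p under 0.05, beside 2199 of all 14823 genes. Of the meningeal fibroblast genes, 13 of 15 were positive there (median 0.16), with 1 under it. In these lists 0 genes were called. Their part in the Vim values was not tested. In hippocampus Vim was at 32.1, 36.6, 27.5, 37.6 and 52.2 CPM in Ncs1-/- libraries 1 to 5, against 34.0, 41.0, 36.7, 35.2 and 41.4 CPM in wild-type libraries 1 to 5, so that the Ncs1-/- group spanned the wild-type one. The log2 fold change was -0.01 (SE 0.14), and -0.16 without Ncs1-/- library 5, which had the highest Vim of the 20 libraries together with the highest mural sum, 378 CPM. The meningeal fibroblast sum was 408 CPM in that library, and 417 CPM in Ncs1-/- library 2, whose Vim was 36.6 CPM. In hippocampus 4 of 8 mural genes and 3 of 15 meningeal fibroblast genes were positive.

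Id3, the gene of the inhibitor of DNA binding, showed no separation by genotype. In hippocampus it was at 15.5, 19.4, 15.9, 18.1 and 15.7 CPM in Ncs1-/- libraries 1 to 5, against 20.8, 22.0, 14.0, 16.2 and 13.8 CPM in wild-type libraries 1 to 5. In cortex it was at 14.8, 10.4, 14.0, 15.7 and 11.6 CPM in Ncs1-/- libraries 1 to 5, against 19.6, 13.7, 8.95, 10.9 and 12.6 CPM in wild-type libraries 1 to 5. In both regions every Ncs1-/- value lay within the wild-type range. The log2 fold change was -0.03 (SE 0.14) in hippocampus and 0.03 (SE 0.18) in cortex, and the sign in each region depended on which library was left out (-0.10 to 0.07 in hippocampus, -0.09 to 0.21 in cortex).

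Fabp7, the gene of the lipid-binding protein of radial glia and astrocytes, had lower means in Ncs1-/- tissue in both regions, as Myoc did. In cortex it was at 19.1, 9.90, 11.6, 12.4 and 11.2 CPM in Ncs1-/- libraries 1 to 5, against 18.6, 18, 15.1, 21.0 and 14.3 CPM in wild-type libraries 1 to 5. Again 4 of 5 Ncs1-/- libraries lay below every wild-type library, but the library that did not was number 1 and not number 3 as for Myoc. How many of all genes show such a placement was not computed. The means were 12.8 ± 3.62 CPM in Ncs1-/- and 17.4 ± 2.73 CPM in wild type (SD, n = 5 each), and the log2 fold change was -0.44 (SE 0.16), and -0.62 without Ncs1-/- library 1, which was also the cortex library with the most choroid plexus RNA. In hippocampus it was at 26.1, 20.6, 11.6, 11.7 and 15.2 CPM in Ncs1-/- libraries 1 to 5, against 23, 24.8, 18, 17.5 and 14.9 CPM in wild-type libraries 1 to 5. The groups overlapped widely there, with a log2 fold change of -0.19 (SE 0.22) that ran from -0.41, without Ncs1-/- library 1, to -0.08, without Ncs1-/- library 3.

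**Figure D2:**
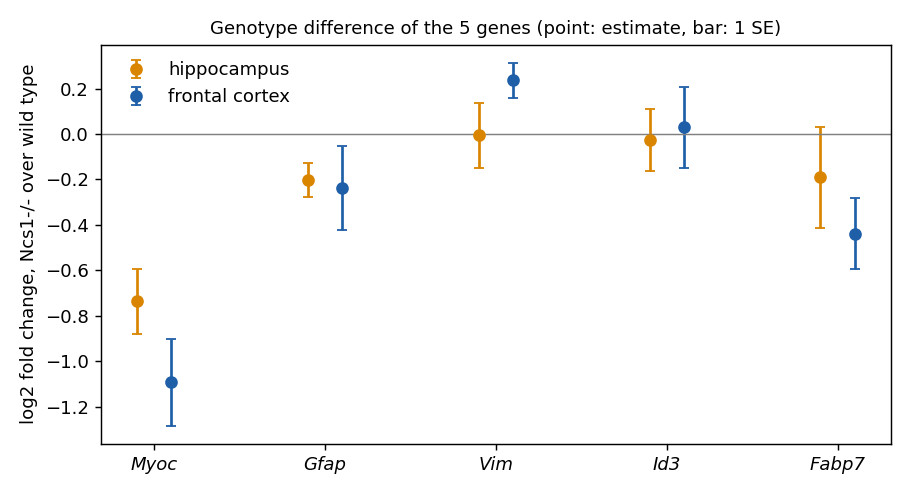
Log2 fold change of each gene, Ncs1-/- over wild type, in hippocampus (left point) and frontal cortex (right point) of each pair, with bars of 1 SE. Myoc lies at -0.74 and -1.09, Fabp7 and Gfap lie between -0.44 and -0.19, and Id3 lies near 0, while Vim is at -0.01 in hippocampus and 0.24 in cortex.

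The wider astrocyte programme was described with 10 lists that hold 106 genes besides the 5, chosen with earlier results of these data known. In hippocampus 100 of them were tested and in cortex 97, and 0 passed an adjusted p of 0.05 in either region in edgeR's quasi-likelihood test. The background was 0.0266% of all genes called in hippocampus and 0.027% in cortex. At an unadjusted p under 0.05 there were 2 list genes in hippocampus and 22 in cortex, beside 568 and 2199 of all genes. DESeq2 called 0 list genes in hippocampus and 3 in cortex (Dcx higher, Id2 and Olfm1 lower), where it called 169 of all 14823 genes, and limma-voom called 0 in both. Without wild-type cortex library 5, edgeR called 563 genes in cortex, among them the list genes Aldoc, Dcx, Id2 and Olfm1. The median log2 fold change of the list genes tested was -0.01 in hippocampus and 0.0049 in cortex, against 0.0070 and 0.0019 for all genes.

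The surface astrocyte list, with markers of the glia limitans and of fibrous astrocytes, showed no shared direction with Myoc. Its 12 genes had 6 negative log2 fold changes and a median of -0.01 in hippocampus, and 5 negative ones and a median of 0.01 in cortex. Its summed level was 403 to 494 CPM in Ncs1-/- and 444 to 497 CPM in wild-type hippocampus, and 355 to 397 CPM in Ncs1-/- and 322 to 421 CPM in wild-type cortex. Aqp4, the water channel of astrocyte end-feet, averaged 195 ± 19.8 CPM in Ncs1-/- and 207 ± 7.87 CPM in wild-type hippocampus, and 151 ± 8.37 CPM in Ncs1-/- and 165 ± 19.0 CPM in wild-type cortex (SD, n = 5 each). S100a6, a calcium-binding protein of fibrous astrocytes, averaged 5.72 ± 0.787 CPM in Ncs1-/- and 7.25 ± 0.412 CPM in wild-type cortex (SD, n = 5 each). It had the smallest p of the list in cortex, at a log2 fold change of -0.34 (SE 0.10, edgeR adjusted p = 0.235). Nes, the intermediate filament nestin, had a log2 fold change of 0.31 (SE 0.12, edgeR adjusted p = 0.279) in cortex, on the same side of 0 as Vim.

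Genes of reactive astrocytes were also without a call, where calls were rare among all genes (0.0266% in hippocampus and 0.027% in cortex). The pan-reactive list had 5 of 9 tested genes positive and a median log2 fold change of 0.05 in hippocampus, and 7 of 9 positive and a median of 0.19 in cortex. At an unadjusted edgeR p under 0.05 it had 0 genes in hippocampus and 3 in cortex, beside 2199 of all 14823 genes in cortex. These 3 were Lcn2, Hspb1 (0.46) and Cp (0.19), all higher in Ncs1-/-. Lists named for neurotoxic-type (A1) and protective-type (A2) reactive astrocytes had medians of -0.02 and 0.09 in hippocampus and of 0.15 and 0.10 in cortex. In cortex 7 of 11 A1 genes and 8 of 9 A2 genes tested were positive, with 1 gene of each list at an unadjusted edgeR p under 0.05. In hippocampus 4 of 11 and 7 of 10 were positive, with 0 under it. Lcn2, the secreted iron-siderophore binding protein lipocalin 2, showed the widest spread. It ranged from 0.116 to 6.68 CPM in Ncs1-/- cortex and from 0.0386 to 2.08 CPM in wild-type cortex, and its log2 fold change was 2.32 (SE 0.86, edgeR adjusted p = 0.266). Serpina3n, a protease inhibitor that is among the most used markers of reactive astrocytes, averaged 58.2 ± 5.77 CPM in Ncs1-/- and 61.6 ± 6.80 CPM in wild-type hippocampus, and 10.0 ± 0.431 CPM in Ncs1-/- and 10.4 ± 1.46 CPM in wild-type cortex (SD, n = 5 each).

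Core astrocyte genes, which all astrocytes express, had mostly small negative values. In hippocampus 11 of 15 were negative with a median of -0.08, and in cortex 14 of 15 with a median of -0.09, and 0 of 15 passed the test in either region, with 2 and 4 at an unadjusted p under 0.05. Of all genes, 53.1% in hippocampus and 50.6% in cortex were positive. Lists of other cell types went both ways. Microglia genes were negative for 7 of 8 in each region (medians of -0.06 in hippocampus and -0.09 in cortex). Neuron genes were negative for 6 of 8 in hippocampus (median -0.03) and 7 of 8 in cortex (median -0.07). Oligodendrocyte genes were positive for 8 of 8 in hippocampus (median 0.05) and 7 of 8 in cortex (median 0.04). Choroid plexus genes were positive for 8 of 8 tested in hippocampus and 5 of 5 tested in cortex. In these 4 lists 0 genes were called. Acsbg1, a fatty acyl-CoA synthetase, had a log2 fold change of -0.14 (SE 0.05, edgeR adjusted p = 0.991) in hippocampus and -0.16 (SE 0.05, edgeR adjusted p = 0.255) in cortex. Glul, glutamine synthetase, was at -0.11 (SE 0.04) in hippocampus and -0.11 (SE 0.04) in cortex, with edgeR adjusted p of 0.991 and 0.304. The Myoc values of -0.74 and -1.09 were outside the range of the core astrocyte list in both regions, as the plot of list genes shows. Myoc was chosen for its low fold change, so this place is a description and no test. Among relatives of the 5 genes, Fabp5, another fatty acid-binding protein, stood at -0.08 (SE 0.10) in hippocampus and -0.14 (SE 0.05) in cortex, with edgeR adjusted p of 0.991 and 0.235. The Id and BMP response list had medians of 0.03 in hippocampus and 0.02 in cortex, the intermediate filament list -0.02 and -0.06, the olfactomedin family, to which Myoc belongs, -0.09 and -0.04, the fatty acid-binding list (2 genes tested) -0.11 and -0.10, and the list of radial glia and neural progenitor genes 0.16 and 0.20. Olfml2a, an olfactomedin-like relative of Myoc, had the lowest value of the 10 lists in hippocampus, at -0.75 (SE 0.50, edgeR adjusted p = 0.991), and was at -0.16 (SE 0.18, edgeR adjusted p = 0.685) in cortex.

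**Figure D3:**
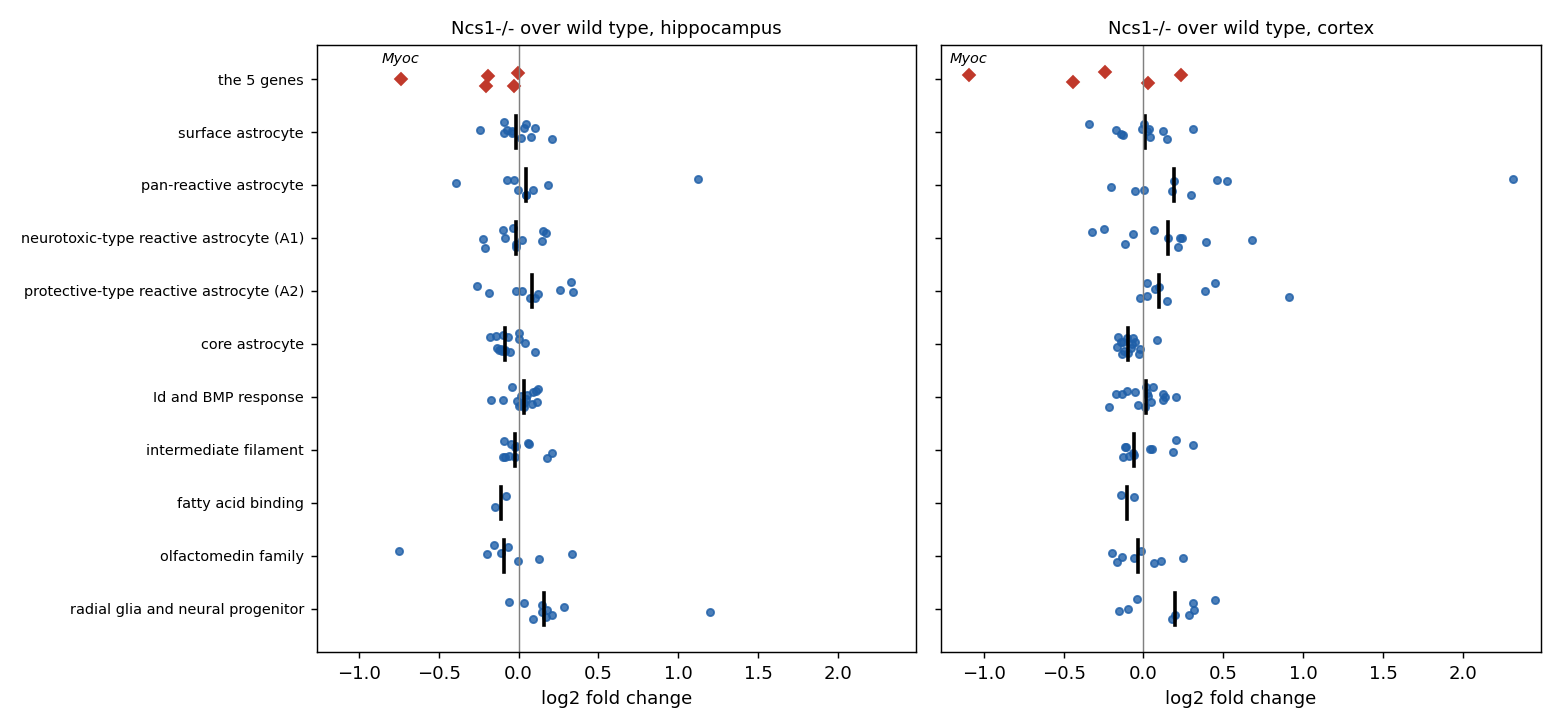
Log2 fold change, Ncs1-/- over wild type, of the 5 genes (red diamonds) and of the genes of 10 astrocyte-related lists without them (blue points), in hippocampus on the left and cortex on the right, with the median of each list as a black bar. In hippocampus Olfml2a, of the olfactomedin family, lies at -0.75, next to Myoc at -0.74, while in cortex Myoc lies below every list gene. Myoc was chosen by this fold change, so its place is a description. The list medians lie between -0.11 and 0.20.

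Regional differences were not used to choose the 5 genes and could be tested. Hippocampus was compared with cortex within each genotype, and 19.2% of the genes tested were called higher in hippocampus in Ncs1-/- mice and 18.8% in wild-type mice, so a call is common here. The shares called lower were 19.6% in Ncs1-/- and 20.7% in wild type. Gfap had the largest regional difference of the 5 genes, at a log2 fold change of 1.76 (SE 0.07, edgeR adjusted p = 3.63e-10) in Ncs1-/- and 1.73 (SE 0.20, edgeR adjusted p = 1.43e-05) in wild type, or 3.40-fold and 3.31-fold. Each hippocampus library lay above each cortex library of its genotype, which held for 15.1% of genes in either genotype. The call held in each alternative and with each library left out.

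Vim and Id3 each passed the test in 1 genotype. Vim averaged 37.2 ± 9.29 CPM in hippocampus and 30.9 ± 2.02 CPM in cortex of Ncs1-/- mice, and 37.7 ± 3.37 CPM in hippocampus and 26.3 ± 3.02 CPM in cortex of wild-type mice (SD, n = 5 each). It rose by 0.51 on the log2 scale in wild type (SE 0.08, edgeR adjusted p = 3.33e-04), with no overlap between the regions. Its log2 fold change was 0.27 (SE 0.14, edgeR adjusted p = 0.141) in Ncs1-/-, and 0.36 (edgeR adjusted p = 0.0313) without hippocampus library 3. Id3 averaged 16.9 ± 1.74 CPM in hippocampus and 13.3 ± 2.22 CPM in cortex of Ncs1-/- mice, and 17.4 ± 3.82 CPM in hippocampus and 13.1 ± 4.02 CPM in cortex of wild-type mice (SD, n = 5 each). It rose by 0.34 in Ncs1-/- (SE 0.11, edgeR adjusted p = 0.0302), a call that was lost without cortex library 2 or 5, without hippocampus library 2 or 4, and without the libraries rich in choroid plexus genes. In wild type its log2 fold change was 0.39 (SE 0.19, edgeR adjusted p = 0.128). With the replicate number as a block it was 0.41 (SE 0.10, edgeR adjusted p = 0.00862). The block treats same-numbered libraries as pairs, which the labels do not state. Without wild-type cortex library 1 the value was 0.58 (edgeR adjusted p = 0.0150). A call in 1 genotype and not in the other does not show that the genotypes differ, and the interaction of genotype and region was -0.25 (SE 0.17) for Vim and -0.06 (SE 0.24) for Id3, given as descriptions.

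Myoc and Fabp7 passed in neither genotype. Myoc had a log2 fold change, hippocampus over cortex, of 0.47 (SE 0.18, edgeR adjusted p = 0.0588) in Ncs1-/- and 0.11 (SE 0.15, edgeR adjusted p = 0.581) in wild type. In Ncs1-/- mice it passed without cortex library 3 (0.66, edgeR adjusted p = 0.00657) and without hippocampus library 1 (0.57). Myoc also passed there with total-count scaling (0.50), with DESeq2 (0.47) and with the replicate number as a block, although the numbers were not taken as pairs in Ncs1-/-. In wild type the sign turned without cortex library 3 (-0.01, edgeR adjusted p = 0.933). Fabp7 was at 0.41 (SE 0.24, edgeR adjusted p = 0.192) in Ncs1-/- and 0.16 (SE 0.14, edgeR adjusted p = 0.410) in wild type. Over all genes, 0 of 15310 had an interaction past the threshold in edgeR, with 214 at an unadjusted p under 0.05, 1 call in DESeq2 and 0 in limma-voom.

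Other genes of surface astrocytes were often higher in hippocampus. Of 12, 7 were called higher and 1 lower in hippocampus in Ncs1-/- mice, and 6 higher and 1 lower in wild-type mice. Of all genes, 19.2% were called higher and 19.6% lower in Ncs1-/-, and 18.8% higher and 20.7% lower in wild type. The same shares stand beside the lists below. Markers of other cell types moved with the region too. Ependyma genes were called higher in hippocampus for 8 of 8 tested in Ncs1-/- (median 1.96) and 5 of 6 tested in wild type (median 1.19). Their sum was 16.7 to 41.2 CPM in hippocampus and 7.44 to 11.8 CPM in cortex of Ncs1-/- mice, and 12.7 to 30.2 CPM in hippocampus and 7.06 to 16.1 CPM in cortex of wild-type mice, with Tmem212 and Sntn at 0 in some wild-type cortex libraries. Oligodendrocyte genes were positive for 8 of 8 in each genotype, with 3 called. Their sum was 3808 to 5749 CPM in hippocampus and 3718 to 4030 CPM in cortex of Ncs1-/- mice, and 3890 to 5432 CPM in hippocampus and 3235 to 4257 CPM in cortex of wild-type mice, with no marker at 0. Their part in the regional values was not tested. Thbs4, the matrix protein thrombospondin 4, rose by 1.42 (SE 0.11, edgeR adjusted p = 3.95e-07) in Ncs1-/- and 1.501 (SE 0.30, edgeR adjusted p = 0.00124) in wild type. Agt, angiotensinogen, rose by 1.03 (SE 0.21, edgeR adjusted p = 0.00173) in Ncs1-/- and 1.42 (SE 0.30, edgeR adjusted p = 0.00215) in wild type, and Tnc, the matrix protein tenascin C, by 0.92 (SE 0.16) and 1.04 (SE 0.14). S100a6 was the gene called lower, at -0.36 (SE 0.13, edgeR adjusted p = 0.0380) in Ncs1-/- and -0.79 (SE 0.09, edgeR adjusted p = 9.63e-06) in wild type. Of the pan-reactive genes, Serpina3n rose by 2.53 (SE 0.08) in Ncs1-/- and 2.55 (SE 0.10) in wild type (edgeR adjusted p = 5.37e-11 and 1.82e-09). Its list as a whole did not follow it. In Ncs1-/- 3 of 9 tested genes were positive (median -0.07), with 2 called higher and 0 lower. In wild type 7 of 8 were positive (median 0.28), with 1 called higher and 0 lower.

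**Figure D4:**
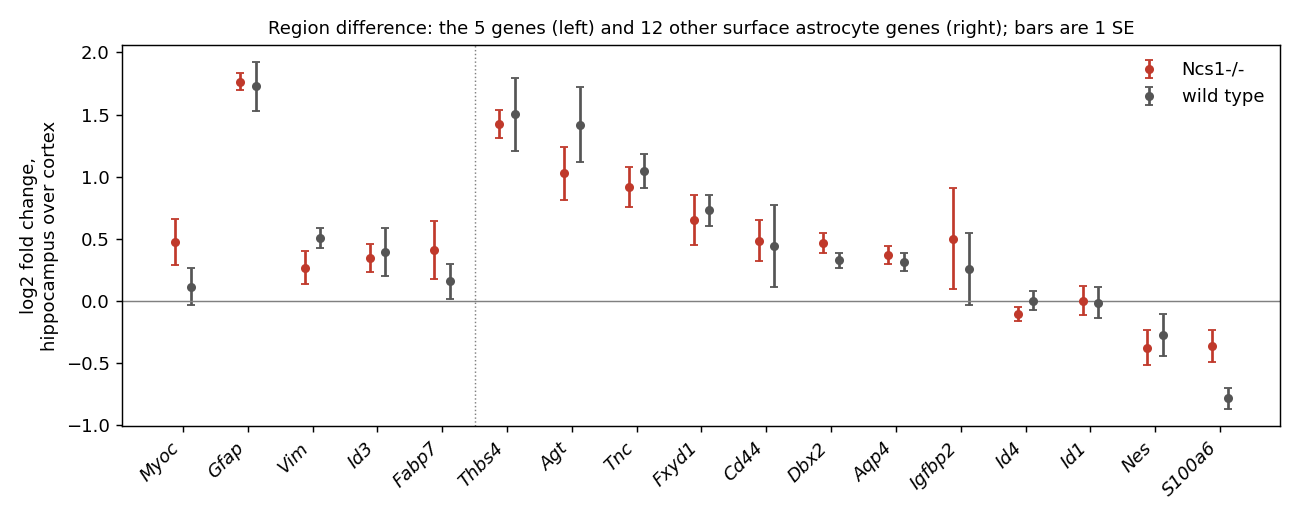
Log2 fold change, hippocampus over cortex, of the 5 genes (left of the dotted line) and of the 12 other surface astrocyte genes (right), in Ncs1-/- mice (red, left of each pair) and wild-type mice (grey), with bars of 1 SE. Gfap is at 1.76 and 1.73, close to Thbs4 at 1.42 and 1.501, whereas Myoc is at 0.47 and 0.11.

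Whether Myoc went with the other 4 genes library by library was tested on deviations of log2 CPM from the mean of the library's own group, which removes the genotype difference that chose Myoc. There were 8 relations, each over 10 libraries of a region, tested by exact permutation within genotype (14400 permutations, two-sided). None passed. The strongest was that of Gfap in cortex, with Pearson's r = 0.58 (permutation p = 0.0900, adjusted 0.630) and Spearman's rho = 0.47 (permutation p = 0.216, adjusted 0.765), and r fell to 0.48 without the 2 libraries farthest from the median. Id3 in cortex had r = 0.52 (permutation p = 0.158, adjusted 0.630) and rho = 0.39 (permutation p = 0.294, adjusted 0.765), and r = 0.25 without those 2 libraries. In wild-type cortex, library 3 was the lowest and library 1 the highest or next to it in each of Myoc, Gfap and Id3. Without wild-type cortex library 3 the r of Gfap was 0.31 and that of Id3 0.24.

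The remaining relations were weaker or rested on single libraries. In cortex Vim had r = 0.23 and rho = 0.18 (permutation p = 0.588 and 0.669), and Fabp7 had r = 0.0021 and rho = 0.08 (permutation p = 0.995 and 0.841). In hippocampus Gfap had r = -0.31 and rho = -0.20 (permutation p = 0.332 and 0.572), so its sign was opposite to that in cortex. Vim in hippocampus had r = 0.37 and rho = 0.26 (permutation p = 0.450 and 0.526), but r = -0.52 without the 2 farthest libraries, so the positive value rests on those libraries. Id3 had r = 0.16 and rho = 0.18 (permutation p = 0.610 and 0.621), and Fabp7 r = -0.38 and rho = -0.30 (permutation p = 0.390 and 0.473). Without the 2 farthest libraries, r was 0.51 for Vim and -0.19 for Fabp7 in cortex, and -0.27 for Gfap, 0.27 for Id3 and -0.07 for Fabp7 in hippocampus. The adjusted p of the 8 Pearson values lay between 0.630 and 0.995, and that of the Spearman values between 0.765 and 0.841.

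**Figure D5:**
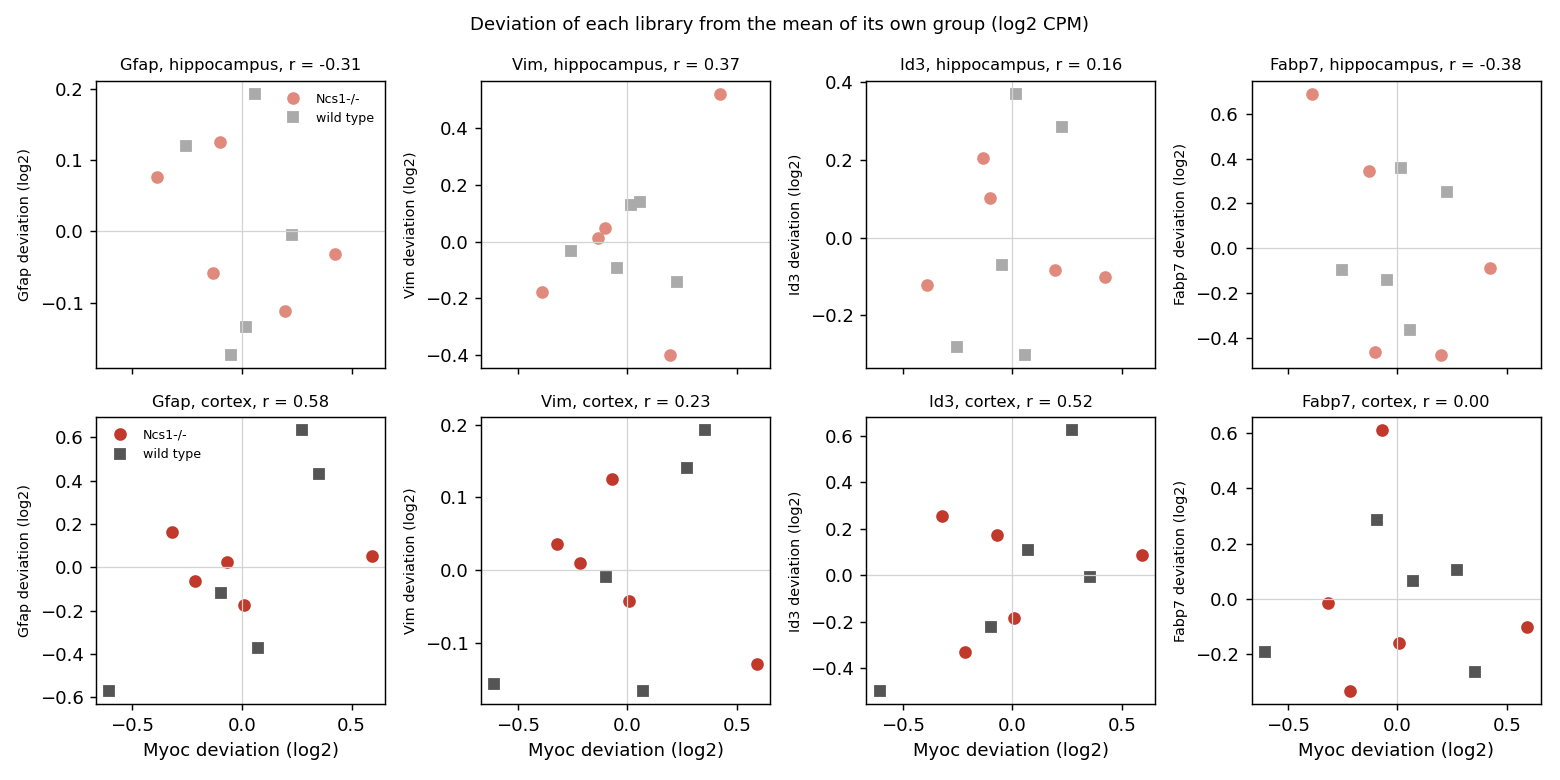
Deviation of Myoc (x axis) and of Gfap, Vim, Id3 and Fabp7 (y axes) from the mean of the library's own group, in log2 CPM, for 10 hippocampus libraries (top) and 10 cortex libraries (bottom), with Ncs1-/- as circles and wild type as squares. The highest r is 0.58, for Gfap in cortex, and the same pair has -0.31 in hippocampus.

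The genes most like Myoc across libraries were in none of the astrocyte lists. Over the 20 deviations and 13677 genes, the 5 highest Pearson correlations with Myoc were those of Sik1 (0.82), a kinase induced by cyclic AMP signalling, Klf4 (0.79), a zinc finger transcription factor, Tbc1d2b (0.79), Swap70 (0.79) and Rttn (0.77). Gfap correlated with Myoc at 0.39, Id3 at 0.40, Vim at 0.28 and Fabp7 at -0.17, and 10.1%, 9.50%, 19.9% and 68.3% of genes had a higher correlation with Myoc than these. The 5 genes most like Myoc did not share its genotype difference. Their log2 fold changes, Ncs1-/- over wild type, were 0.26 for Sik1, 0.28 for Klf4, 0.10 for Tbc1d2b, 0.15 for Swap70 and 0.16 for Rttn in hippocampus, and 0.39, 0.58, 0.26, 0.06 and 0.56 in cortex, none past the threshold in edgeR. The genes most like Id3 were Zfp36l1 (0.89), Sox2 (0.86), a transcription factor of neural stem cells and astrocytes, and Tmem35a (0.86). Those most like Vim were Aebp1 (0.89), Crispld2 (0.88) and Gpr182 (0.88), and those most like Gfap were Ptpn9 (0.86), Apaf1 (0.80) and Cpne7 (0.77). For Apaf1 and Cpne7 the likeness to Gfap was that of cortex, with r of 0.93 and 0.88 there and of -0.05 and 0.12 in hippocampus. Ptpn9 had 0.89 in cortex and 0.69 in hippocampus. For Fabp7 they were Kdelr2 (0.94), Rps18-ps4 (0.92) and Prdx2 (0.91). Among the 5 genes themselves the highest correlation was between Gfap and Id3, at 0.47. These values are descriptions, since libraries also share depth and tissue composition. The genes named as most alike were picked as the highest of 13677. How high such picked values lie by chance alone was not computed.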

How the data were processed

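The 20 bulk RNA-seq libraries were grouped and numbered by their titles, 5 to each genotype in each region. The authors deposited expected counts by gene, in 1 table for hippocampus and 1 for cortex, not scaled for depth by the authors as far as the values show (22.6% to 27.3% of a library's values were over 0.001 from a whole number). STAR 2.7.3a, Partek and the build mm10 are named in the submitters' processing notes. No source used here gives the annotation or the strand setting.

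After rounding, edgeR 4.0.16 (R 4.3.3) was used (filterByExpr, TMM, quasi-likelihood test, Benjamini-Hochberg adjustment at 0.05 over all genes). A standard error is the log2 fold change divided by the root of F. Log2 levels used a prior count of 2. CPM per kb used exonic lengths of GENCODE M21.  The fits were tested on simulated counts. Alternatives were other scalings, DESeq2 1.42.0, limma-voom 3.58.1, filters, a block for the replicate number, leaving out each library and, chosen after seeing the data, leaving out libraries with over 500 CPM of choroid plexus genes.

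Same-numbered wild-type libraries of the regions had correlations of 0.114 to 0.468 over 13677 genes, so the numbers may pair them. Number 2 correlated less with its own number (0.146) than with another (0.180), and the labels state no pairing. The main tests did not use the numbers. In the other comparisons at least 1 number had a correlation under 0.1.

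The 5 genes and the lists were chosen with earlier results of these data known. Named genes were the 5, Ncs1, list genes past the threshold, the 3 with the smallest p of each astrocyte list, in regions the 3 largest differences in wild type, and the genes most like each of the 5, of which the report gives a part. Aqp4 and Serpina3n in cortex, S100a6 between regions, and Rn45s were named after their values were seen.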

Additional observations from a re-analysis of the deposited data

Results flagged for a closer look

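Of 20 groups of 5 libraries examined (5 genes in 4 groups), 2 had a library far from the others by Dixon's criterion, where chance gives about 1 in 20. Both were in Ncs1-/- cortex. The gap over the range was 0.7107 for Myoc and 0.733 for Fabp7, against a critical value of 0.71, so Myoc passed only narrowly. Myoc was at 12.6 CPM in library 3, where the other 4 Ncs1-/- cortex libraries lay between 6.68 and 8.41 CPM. Fabp7 was at 19.1 CPM in library 1, where the other 4 lay between 9.90 and 12.4 CPM. Library 1 also held 611 CPM of choroid plexus genes, and library 3 held 221 CPM, close to the rest of its group. The part of the choroid plexus RNA in the Fabp7 value was not tested.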

How the results depend on the processing

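Of the results recomputed under alternatives, 673 values kept their direction and their side of the threshold or moved by less than the replicate spread, 13 turned sign, 5 counts moved, 5 values lost their call and 8 gained one. The number of genes called in cortex, Ncs1-/- over wild type, was 4, and 169 with DESeq2, and from 4 to 563 with 1 library left out (563 without wild-type library 5). In hippocampus the 4 calls became 0 without the libraries rich in choroid plexus genes (fewer samples). With 1 library left out they were 3 to 4. The interaction had 0 calls, 1 with DESeq2, and 0 to 1 with 1 library left out. Regional values, hippocampus over cortex, changed their call as follows. Id3 in wild type passed with the replicate number as a block (0.41), and ran from 0.28 to 0.58 with 1 library left out. Id3 in Ncs1-/- missed the threshold without the libraries rich in choroid plexus genes (0.28), and ran from 0.26 to 0.42. Myoc in Ncs1-/- passed with total-count scaling (0.50), with DESeq2 (0.47) and with the replicate number as a block (0.48), and ran from 0.35 to 0.66. Vim in Ncs1-/- ran from 0.12 to 0.36, and Myoc in wild type from -0.014 to 0.21. The causes were not tested. The block changed no other call of the 5 genes. Outside wild type the numbers were not taken as pairs. There the block left the counts of calls between genotypes at 4 and 4, and gave 6250 in place of 5838 between regions of Ncs1-/-. In no comparison, that of wild type included, did every library correlate best with its own number. Correlations with Myoc that turned sign were those of Fabp7 in cortex (0.0021, -0.19 without the 2 farthest libraries, -0.22 to 0.16 with 1 left out), Vim in hippocampus (-0.52 without the 2 farthest, -0.33 to 0.75), Vim in cortex (-0.11 to 0.66), Id3 in hippocampus (-0.027 to 0.36) and Fabp7 in hippocampus (-0.51 to 0.021). None passed an adjusted p of 0.05 in any alternative, the lowest being 0.265. Each group had 5 libraries, and Myoc had 133 to 550 counts in a library. The parts of counting and of the spread between libraries in these values were not computed.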
